A study of Mus musculus with 24 samples.

Results

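Malat1, Neat1, Gas5, Miat, Snhg1 and Dleu2 are noncoding RNAs of the nucleus or hosts of small RNAs, and their levels were compared between strains, radiation doses and times in mouse mammary gland. A probe was taken for a gene where the array files gave exactly that gene name, and controls were left out. The rule found 9 probes among 55681, for 5 of the 6 genes: 1 for Malat1, 1 for Neat1, 1 for Snhg1, 3 for Gas5 and 3 for Dleu2. No probe carried the name Miat, so no value is given for it. Another 84 probes with other names lay within 20000 bases of these 9 probes and are described by locus.

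RNA of mammary gland tissue from female mice was hybridised to 24 single-colour Agilent arrays in 8 groups of 3, replicates A, B and C. BALB/c mice received 10 cGy of X-rays to the whole body (LDIR) or sham exposure at 8 to 9 weeks of age and were examined after 2, 4 or 8 weeks. SPRET/EiJ mice, an inbred strain of Mus spretus, received the same treatments and were examined after 4 weeks only. The labels name no transgene or engineered allele, and the study regards BALB/c as the radiation-sensitive and SPRET/EiJ as the resistant strain. Levels are log2 intensities relative to each array's 75th percentile, so 0 is that percentile and each step of 1 is a doubling. Differences of log2 levels are given with the standard error (SE) or 95% confidence interval (CI), and levels of different probes are not compared with each other.

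Malat1 (also NEAT2) is an abundant RNA of nuclear speckles, the bodies where splicing factors gather. Neat1, its neighbour on the chromosome, is the scaffold of paraspeckles and is made as a short and a long form from the same start site, the short one ending at an early polyadenylation site. Gas5 and Snhg1 carry C/D box snoRNAs in their introns. Their spliced RNAs start with the pyrimidine tract of translation genes (5′TOP) and are removed by nonsense-mediated decay. Dleu2 is the host of miR-15a and miR-16, which repress cell cycle genes, and Miat is a nuclear RNA that binds splicing factors.

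The probe sequences are shown because the strain differences below were not the same at every stretch read at the Neat1, Gas5 and Dleu2 loci. All are from the array files with mm9 coordinates, 5′ to 3′, and capitals mark a polyadenylation signal (AATAAA or ATTAAA, searched on the printed strand).
Malat1 A_55_P2021187, chr19:5795713-5795772, minus strand: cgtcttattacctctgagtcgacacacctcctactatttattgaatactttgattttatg
Neat1 A_51_P234692, chr19:5842564-5842623, minus strand: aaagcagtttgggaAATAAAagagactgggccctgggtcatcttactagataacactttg
lincRNA probe A_30_P01019037, chr19:5834543-5834602, minus strand: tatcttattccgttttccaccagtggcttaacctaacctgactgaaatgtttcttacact
Gas5 A_66_P134809, chr1:162968608-162968667, plus strand: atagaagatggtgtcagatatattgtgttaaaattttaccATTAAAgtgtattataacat
Gas5 A_55_P2178378, chr1:162967350-162967409, plus strand: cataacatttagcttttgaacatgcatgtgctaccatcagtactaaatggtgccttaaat
Gas5 A_51_P130544, chr1:162966369-162966428, plus strand: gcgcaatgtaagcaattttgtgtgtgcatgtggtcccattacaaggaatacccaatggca
Snhg1 A_55_P2117710, chr19:8798913-8798972, plus strand: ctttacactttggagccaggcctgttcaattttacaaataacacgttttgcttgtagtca
Dleu2 A_55_P2120931, chr14:62301101-62301160, minus strand: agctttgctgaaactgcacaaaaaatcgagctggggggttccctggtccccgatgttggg
Dleu2 A_55_P2200029, chr14:62237277-62237336, minus strand: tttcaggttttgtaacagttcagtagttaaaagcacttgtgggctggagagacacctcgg
The signal was in 2 of the 9 member probes, those of Neat1 and of the 3′-most Gas5 stretch, and in 13.7% of all 55681 probes. The remaining Dleu2 probe, A_55_P2200034, was well above background on 2 of 24 arrays and is not described further. The other 8 were well above background on all 24, and none of their spots was saturated.

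The lincRNA probe A_30_P01019037 shares the strand of Neat1 and lies 8.02 kb beyond the Neat1 probe in the direction of transcription. The file names it by position and not as Neat1. It was singled out after its values were seen.

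The mature microRNAs within Dleu2 are shown for their shared seed (bases 2 to 8, in capitals; RefSeq, GRCm38.p6), although the array did not read them.
mmu-miR-15a-5p: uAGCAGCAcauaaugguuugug
mmu-miR-16-5p: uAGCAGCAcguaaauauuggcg
Both carry the seed AGCAGCA.

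On 3 of the 24 arrays the summed level of 8 lymphocyte markers was between 7.20 and 7.53, against 3.90 to 4.95 on the other 21: BALB/c 8 weeks sham A, BALB/c 8 weeks LDIR B and SPRET/EiJ LDIR A. These arrays also had the lowest correlations with their replicates, between 0.938 and 0.954. SPRET/EiJ LDIR C had 57.2% of probes well above background, against 64.7 to 72.7% on the rest. Where leaving out these arrays changed a call or moved a value the text turns on, both values are given. The arrays lay on 3 slides of 8, and the strains shared no slide at 4 weeks. RNA came from whole tissue, so fewer cells of a type and less RNA per cell cannot be told apart.

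**Figure D1:**
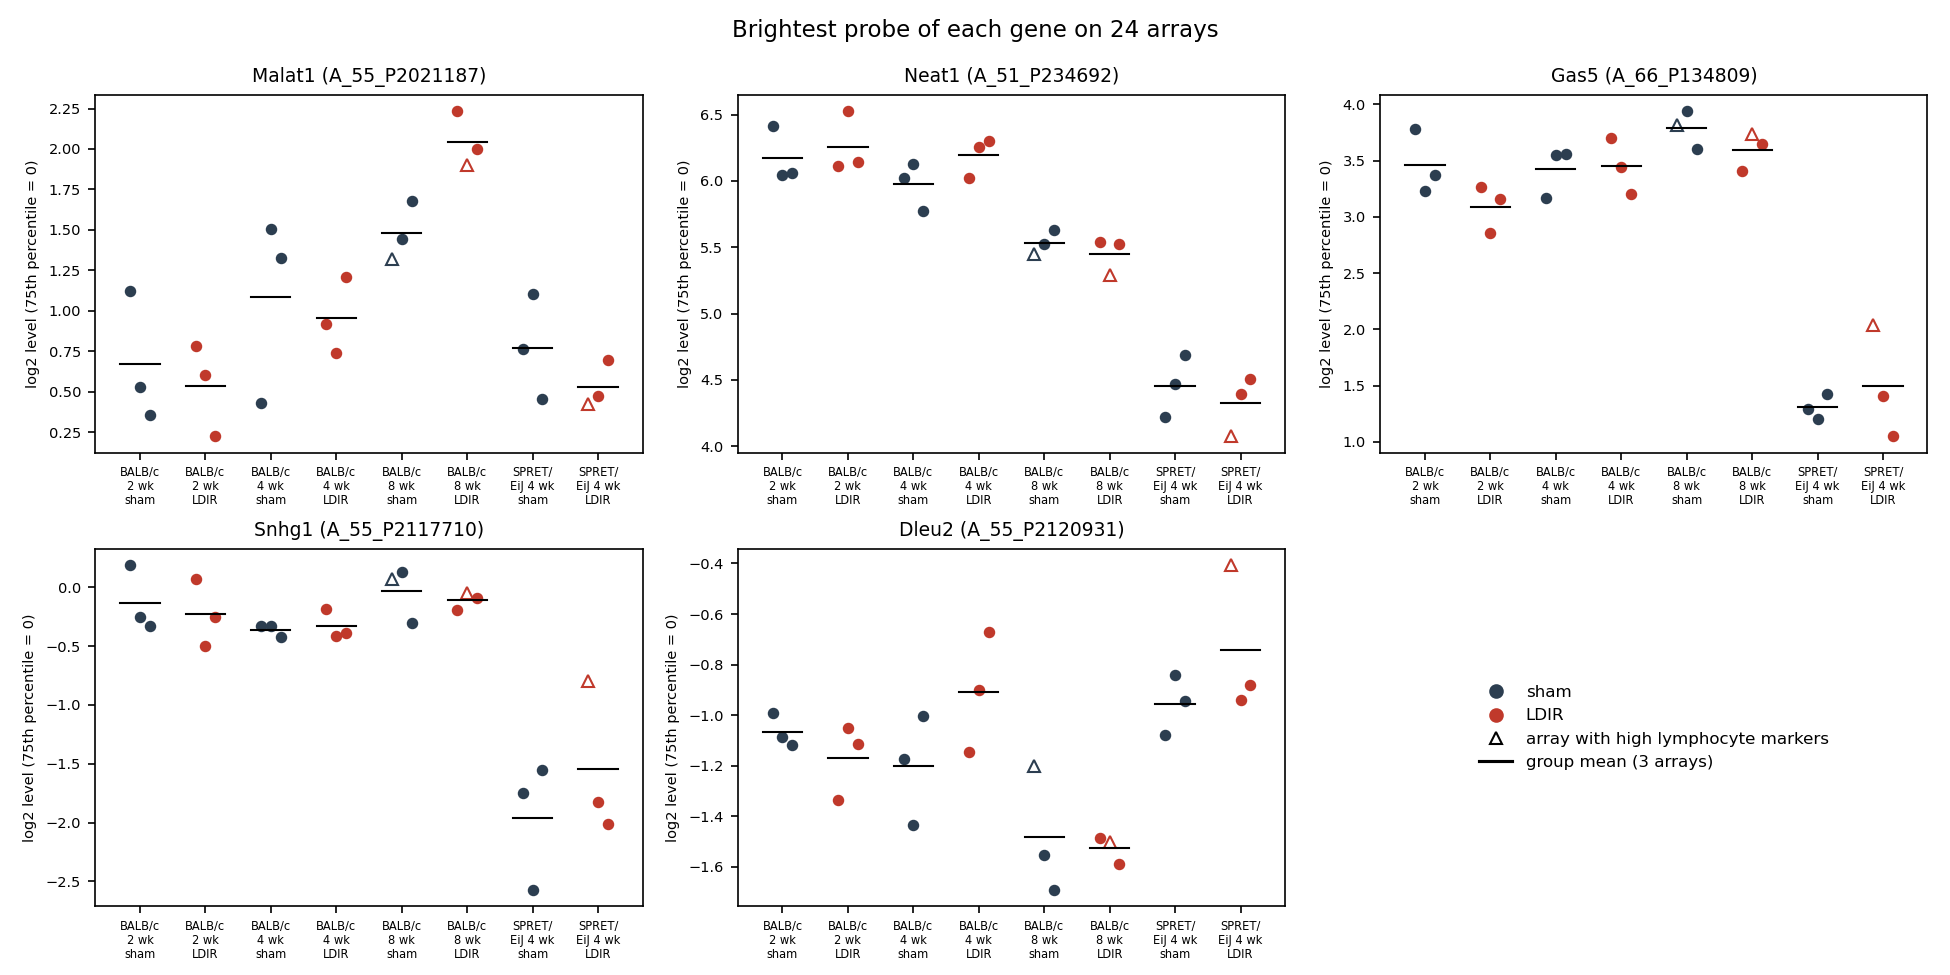
Level of each gene's brightest probe (vertical axis, log2 relative to the array's 75th percentile, each panel on its own scale) on 24 arrays in 8 groups. Circles are arrays, open triangles the 3 arrays with high lymphocyte markers, lines group means of 3. The SPRET/EiJ arrays lie below every BALB/c array for Neat1, Gas5 and Snhg1, and Malat1 is highest in the 8-week BALB/c LDIR arrays.

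Neat1 was read at 6.41, 6.05 and 6.06 in the 2-week BALB/c sham arrays, at 6.02, 6.13 and 5.77 in those of 4 weeks and at 5.45, 5.53 and 5.63 in those of 8 weeks. In the same order of times, LDIR arrays gave 6.11, 6.52 and 6.14, then 6.02, 6.26 and 6.30, then 5.54, 5.29 and 5.52. SPRET/EiJ gave 4.22, 4.47 and 4.68 in sham and 4.07, 4.39 and 4.51 in LDIR. In the order of group means, the 2- and 4-week BALB/c groups stood highest and overlapped, the 8-week BALB/c groups came next and did not overlap them, and both SPRET/EiJ groups were lowest, below every BALB/c array.

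At its only named probe Malat1 had the opposite order over time, with the widest spread in 4-week sham arrays. The sham BALB/c glands gave 1.12, 0.53 and 0.35 (2 weeks), 0.43, 1.51 and 1.33 (4 weeks), then 1.32, 1.44 and 1.68 (8 weeks). Those with LDIR had 0.78, 0.61 and 0.22, then 0.92, 0.74 and 1.21, then 2.23, 1.90 and 2.00 at the same times. SPRET/EiJ levels, 0.76, 1.1 and 0.45 in sham and 0.43, 0.47 and 0.69 in LDIR, lay within the BALB/c range. Only the top step of the order, from 8-week LDIR to 8-week sham, was free of overlap between neighbouring groups. The order is that of this probe. Upstream same-strand lincRNA probes of the locus, given below, were lower at 8 than at 4 weeks in sham glands, none called.

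Gas5, a snoRNA host named for growth arrest, was read by A_66_P134809 at 3.78, 3.23 and 3.37 in 2-week sham, 3.17, 3.55 and 3.56 in 4-week sham, and 3.82, 3.94 and 3.61 in 8-week sham BALB/c glands. LDIR arrays gave 3.26, 2.86 and 3.16, then 3.70, 3.44 and 3.21, then 3.41, 3.73 and 3.65. SPRET/EiJ gave 1.30, 1.20 and 1.43 in sham, and 2.04, 1.41 and 1.05 in LDIR. All BALB/c arrays lay above all SPRET/EiJ arrays, and within BALB/c neighbouring groups overlapped. The highest SPRET/EiJ value, 2.04, was that of the lymphocyte-rich array.

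Snhg1, another snoRNA host, showed the same split. In sham BALB/c it was at 0.19, −0.25 and −0.33 (2 weeks), −0.33, −0.33 and −0.42 (4 weeks), then 0.07, 0.14 and −0.30 (8 weeks). The LDIR levels were 0.07, −0.50 and −0.25, then −0.19, −0.41 and −0.38, then −0.19, −0.05 and −0.09. In SPRET/EiJ they were −1.75, −2.58 and −1.55 in sham and −0.80, −1.82 and −2.01 in LDIR. No SPRET/EiJ array reached the lowest BALB/c array, and the nearest, −0.80, was again the lymphocyte-rich one.

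Dleu2 changed in small steps across groups at its first stretch, A_55_P2120931. Group means ran from −0.74 in SPRET/EiJ LDIR to −1.52 in 8-week BALB/c LDIR, and each group overlapped its neighbours in that order. Groups further apart did not all overlap, and every 8-week BALB/c array (−1.20 at the highest) lay below every SPRET/EiJ array (−1.08 at the lowest). At A_55_P2200029, 63.8 kb further along the gene, the 8-week BALB/c glands were the lowest and the least uniform, at −1.77, −3.50 and −3.02 in sham and −3.68, −2.36 and −3.84 in LDIR. The highest value of each of these groups, −1.77 and −2.36, was that of its lymphocyte-rich array. There, 4-week sham BALB/c gave −1.41, −0.53 and −1.57, and SPRET/EiJ sham −1.21, −1.35 and −1.12.

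A pair of lincRNA probes with the same sequences as member probes gave an internal check over the 24 arrays. Malat1 and its duplicate named NEAT2, A_30_P01019221, differed by at most 0.38 (Pearson r = 0.98), and Dleu2 A_55_P2120931 and its duplicate A_30_P01019549 by at most 0.20 (r = 0.96).

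To ask how the genetic background set the baseline, sham BALB/c was compared with sham SPRET/EiJ at 4 weeks. Gas5, Snhg1 and Neat1 were higher in BALB/c, while Malat1 and Dleu2 were not called. Gas5 A_66_P134809 was 4.34-fold higher (log2 difference 2.12, CI 1.67 to 2.57), Snhg1 3.03-fold (1.60, CI 0.90 to 2.30) and Neat1 2.86-fold (1.52, CI 1.04 to 2.00). The limma test fitted over all probes with Benjamini-Hochberg adjustment gave adjusted p = 0.0009 for Gas5, 0.0128 for Snhg1 and 0.0039 for Neat1. Both other Gas5 probes were called as well, A_55_P2178378 at 2.10-fold (1.07, SE 0.21, adjusted p = 0.0166) and A_51_P130544 at 1.90-fold (0.93, SE 0.25, adjusted p = 0.0489). Thus 5 of 9 probes were higher in BALB/c and 0 lower, where 18.8% of all 55681 probes were called, 10.3% higher and 8.59% lower. The sham arrays of the strains did not overlap for Gas5 A_66_P134809, Snhg1 or Neat1, as for 17.7% of all probes with BALB/c the higher. The call of Snhg1 was lost without BALB/c sham A (limma adjusted p = 0.0504) and with the methods' t-test (adjusted p = 0.0572). The call of Gas5 A_51_P130544 was lost as any of the 6 arrays was left out (adjusted p = 0.0566 to 0.131), and that of A_55_P2178378 without BALB/c sham A (0.056), SPRET/EiJ sham B (0.0526) or SPRET/EiJ sham C (0.0534).

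Malat1 differed by 0.32 (CI −0.50 to 1.13, limma adjusted p = 0.578), which leaves room for a change of either sign. Dleu2 differed by −0.25 at A_55_P2120931 and by 0.06 at A_55_P2200029. The thresholds of the methods, an unadjusted p under 0.001 and a change over 1.5-fold, kept Gas5 A_66_P134809 and Neat1, 2 of 9 probes, where 8.89% of all probes passed. The median of all probes differed by −0.08 in this comparison.

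The LDIR arrays gave the strain comparison in other mice. Gas5 A_66_P134809 was 3.87-fold higher in BALB/c (1.95, SE 0.32, limma adjusted p = 0.0125) and Neat1 3.65-fold higher (1.87, SE 0.23, adjusted p = 0.0049). Snhg1 had a difference of 1.22 (SE 0.36, adjusted p = 0.0811), with groups that did not overlap, as for 18.7% of all probes with BALB/c the higher. The other Gas5 probes differed by 1.04 (adjusted p = 0.173) and 0.49 (adjusted p = 0.527). In all, 2 of 9 probes were called, both higher, where 11.1% of all probes were called and 6.99% higher. Dleu2 A_55_P2200029 was at −1.47, −1.81 and −2.23 in BALB/c and −0.87, −1.13 and −1.02 in SPRET/EiJ, a difference of −0.83 (adjusted p = 0.106).

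The count in LDIR arrays depended on single arrays. Without BALB/c LDIR A or B it was 1 of 9, with the call of Gas5 A_66_P134809 lost (limma adjusted p = 0.0615 and 0.0608), as it was with the methods' t-test (adjusted p = 0.0525). Without SPRET/EiJ LDIR A 4 of 9 probes were called, and Gas5 A_66_P134809 differed by 2.22, Gas5 A_55_P2178378 by 1.45 (limma adjusted p = 0.0219), Neat1 by 1.74 and Snhg1 by 1.59 (adjusted p = 0.0063). On that array all 3 Gas5 probes, Snhg1 and the Dleu2 probes A_55_P2120931 and A_55_P2200029 had the highest value of their group, and its lymphocyte markers summed to 7.25. Their part in these levels was not tested.

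**Figure D2:**
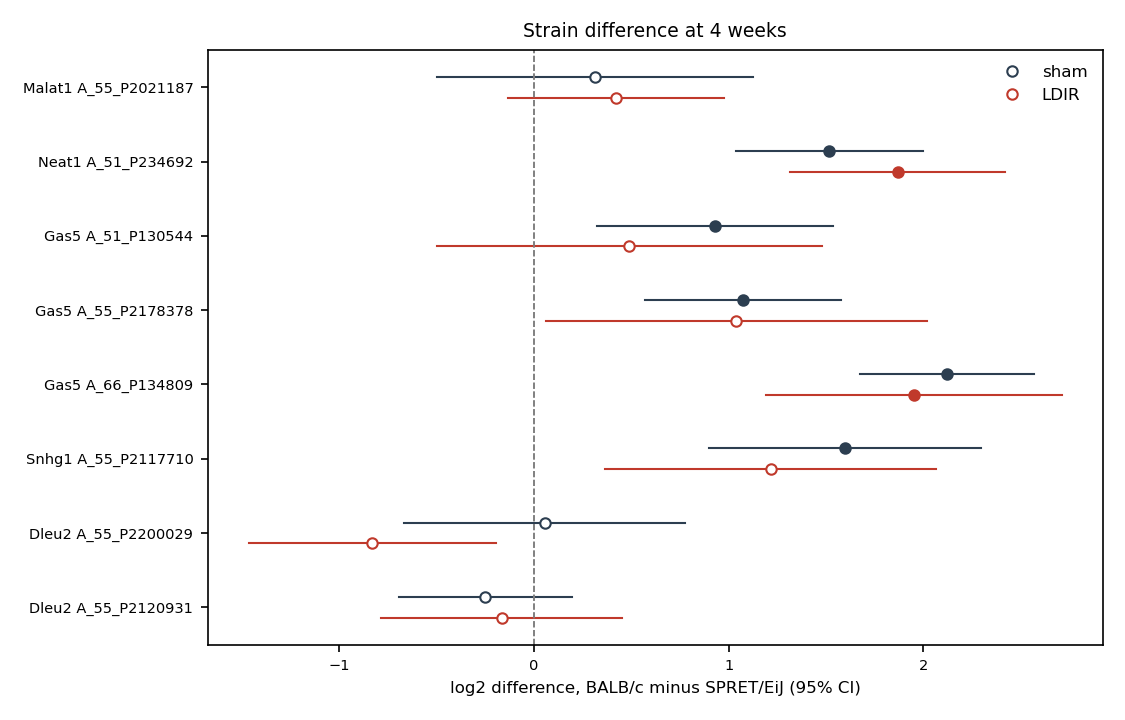
Log2 difference, BALB/c minus SPRET/EiJ at 4 weeks (horizontal axis), for 8 probes in sham (dark) and LDIR arrays (red), 3 arrays a group. Bars are 95% CI and filled points have a limma adjusted p under 0.05. Neat1 and Gas5 A_66_P134809 are filled in both, the other Gas5 probes and Snhg1 in sham arrays, and Malat1 and Dleu2 in neither.

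Slide and strain could not be separated within these arrays. In a fit of all 24 arrays with slide as a fixed term, Gas5 A_66_P134809 kept a sham difference of 2.54 (limma adjusted p = 0.0071). Only BALB/c groups split over slides linked the slides in that fit. They were 4-week sham, with C apart from A and B, and 8-week LDIR, with A apart from C and the lymphocyte-rich B. The BALB/c sham side of the difference therefore rests on sham C alone. In the same fit Neat1 had 1.18 (adjusted p = 0.120) and Snhg1 1.66 (adjusted p = 0.199), and 1 of 9 probes was called. With slide as a random block among the 6 sham arrays 5 of 9 were called. The strains shared no slide there, so that fit could not separate slide from strain. The summed level of 10 luminal epithelium markers was 4.83 to 7.13 in SPRET/EiJ sham and 7.22 to 8.27 in BALB/c sham glands, with a median difference of 1.56 and 0 of 10 genes called (9 of 10 higher in BALB/c). In the LDIR arrays 4 of 10 were called higher in BALB/c. Of 7 basal epithelium markers 2 were called higher in sham BALB/c (median 0.52), and of 6 brown adipocyte markers 1 higher and 2 lower (median −0.25). The 7 milk protein genes were all lower in sham BALB/c (median −2.55, none called), with summed levels of 2.75 to 4.04 against 1.63 to 7.14. The part of these cell types in the strain differences was not tested, and neither was the match of the probes to the SPRET/EiJ genome, which was not used here.

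Along the Neat1 locus the strain difference had opposite signs. The 5 lincRNA probes named NEAT1, which lie between −0.22 and 0.03 kb from the Neat1 probe, were all higher in sham BALB/c, by 1.32 to 1.92, and all 5 were called. The 3 probes of the transcribed region 7.71 to 8.02 kb further along the same strand, A_30_P01019037, A_30_P01025818 and A_30_P01029006, were all lower in BALB/c, by −2.27, −1.63 and −2.55 (limma adjusted p = 0.00085, 0.0039 and 0.00079). The log2 level of A_30_P01019037 was 1.56, 1.69 and 1.83 in sham BALB/c and 3.82, 3.81 and 4.25 in sham SPRET/EiJ, without overlap (20.3% of all probes had BALB/c lower in this way), while Neat1 itself had the reverse order on the same arrays. Thus all 8 same-strand lincRNA probes of the locus were called, 5 higher and 3 lower, where 10.3% and 8.59% of all probes were. The probes of each group overlap or lie close together, so they are not 8 separate observations.

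In LDIR arrays the NEAT1 probes were higher by 1.65 to 2.27 and the downstream ones lower by −2.67 for A_30_P01019037 (limma adjusted p = 0.0307), −1.87 for A_30_P01025818 (adjusted p = 0.0844) and −2.71 for A_30_P01029006 (adjusted p = 0.027). The call of A_30_P01019037 was lost with the methods' t-test (adjusted p = 0.116), with the replicate block (0.0593) and as any array but SPRET/EiJ LDIR A was left out (0.0818 to 0.116). SPRET/EiJ LDIR gave 1.97, 3.95 and 3.71 at A_30_P01019037, and the low value was that of the lymphocyte-rich array. Without it the 3 differences were −3.29, −2.48 and −3.29 (limma adjusted p = 0.0052, 0.0097 and 0.0061). Whether the downstream probes read the long form of Neat1 was not tested. In the sham fit of 24 arrays with slide as a fixed term the difference at A_30_P01019037 was −2.95 (adjusted p = 0.178). On the opposite strand of the locus 1 of 13 lincRNA probes was called, A_30_P01021879 at −0.76.

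**Figure D3:**
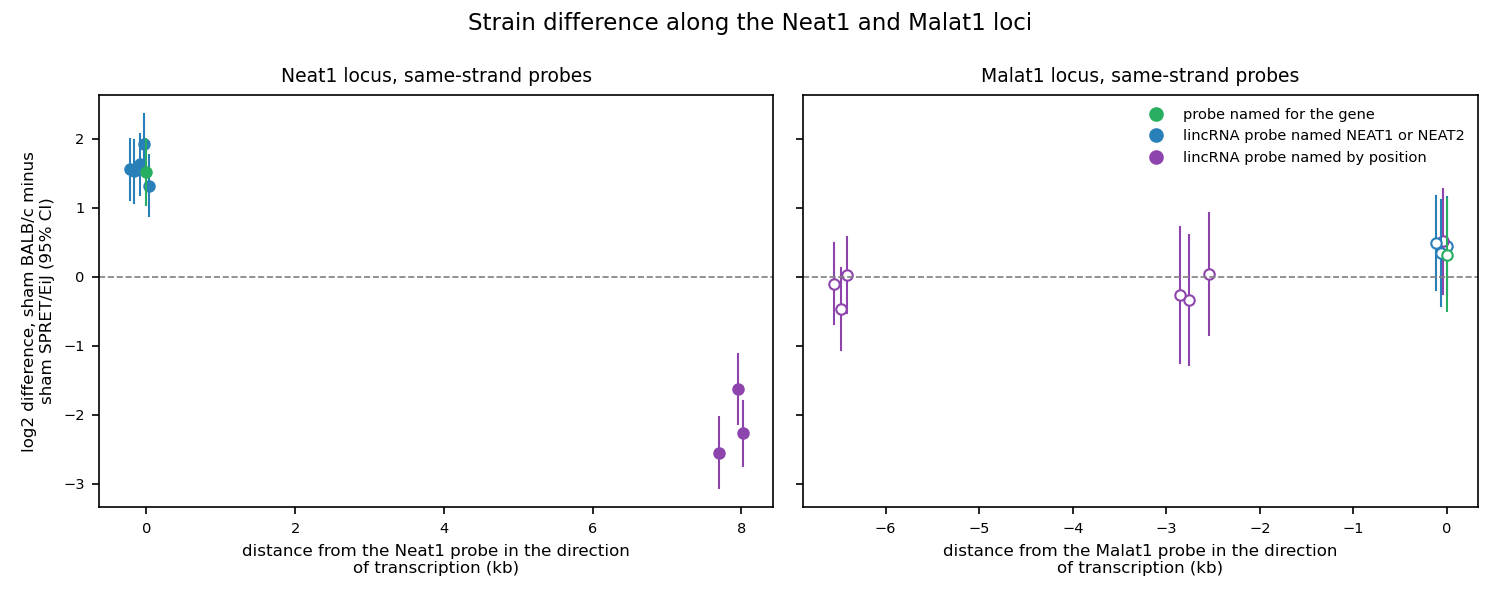
Log2 difference, sham BALB/c minus sham SPRET/EiJ (vertical axis), against the distance of each same-strand probe from the Neat1 or Malat1 probe along transcription (kb). Points are probes with 95% CI, filled where the limma adjusted p is under 0.05. Probes near Neat1 lie between 1.32 and 1.92 and those about 8 kb further between −2.55 and −1.63, and no Malat1 probe is filled.

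The Malat1 locus had no such split. Its 10 same-strand lincRNA probes differed between sham strains by −0.47 to 0.51, 0 of 10 were called by limma, and the smallest unadjusted p was 0.101. At Gas5, 3 of 5 same-strand lincRNA probes were higher in BALB/c, A_30_P01026655 by 1.18, A_30_P01029558 by 0.98 and A_30_P01026422 by 4.12, the last well above background on 2 of 3 SPRET/EiJ arrays. In this comparison 10.3% of all probes were called higher. On none of the 3 sham BALB/c arrays was the opposite-strand probe A_30_P01025816 well above background, and it was at least 5.0-fold lower there.

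Of 13 same-strand lincRNA probes at Dleu2, a pair inside the gene, A_30_P01026929 (3.46) and A_30_P01018358 (2.80), was higher in sham BALB/c. They were well above background on 20 and 22 of 24 arrays. Another of the 13, A_30_P01023742, was lower, at −1.42. The rest of the 13 are not described here. Both named Dleu2 probes well above background were uncalled. The stretches named here differed in both directions, where 10.3% of all probes were called higher and 8.59% lower. Snhg1 had no lincRNA probe nearby.

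The radiation question was whether LDIR changed these RNAs against sham glands of the same strain and time. In no comparison was a member called: 0 of 9 probes by limma with adjustment after any of the 3 times in BALB/c or in SPRET/EiJ, where 0% of all probes were called in each. By the methods' thresholds (unadjusted p under 0.05 and a change over 1.5-fold) 0 of 9 passed as well, where 3.05, 4.83, 1.92 and 2.21% of all probes did. Also 0 of 9 had an unadjusted p under 0.05 in any of the 4, where 5.03, 6.18, 1.97 and 2.22% of all probes had one.

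Malat1 at 8 weeks came nearest. Its LDIR arrays, 2.23, 1.90 and 2.00, lay above its sham arrays, 1.32, 1.44 and 1.68, and 0.917% of all probes had LDIR arrays above the sham arrays without overlap. The difference was 0.57, or 1.48-fold (CI −0.0047 to 1.14, limma unadjusted p = 0.0514, adjusted p = 1), with the median of all probes at −0.14. Without the lymphocyte-rich sham A and LDIR B it was 0.56. With slide as a term among the 6 arrays it was 0.75. That value rests on LDIR A alone, the only LDIR array on the slide of the sham arrays. Of the 10 same-strand lincRNA probes at Malat1 all were higher after LDIR, the 4 closest by 0.59 to 0.63 and the 6 that lie upstream, from −6.55 to −2.54 kb, by 0.11 to 0.23. Those 4 share sequence or neighbouring bases with the Malat1 probe and are not separate evidence. At 2 and 4 weeks Malat1 differed by −0.13 each, and in SPRET/EiJ by −0.24.

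Neat1 differed by 0.09 at 2 weeks (CI −0.37 to 0.55), 0.22 at 4 weeks (CI −0.21 to 0.64) and −0.08 at 8 weeks (CI −0.61 to 0.44), and by −0.13 in SPRET/EiJ (CI −0.75 to 0.49). Gas5 A_66_P134809 differed by −0.37, 0.02 and −0.19 at the BALB/c times and by 0.19 in SPRET/EiJ. For Snhg1 the values were −0.10, 0.03, −0.08 and 0.41, and for Dleu2 A_55_P2120931 −0.10, 0.30, −0.04 and 0.21. The interval for Snhg1 in SPRET/EiJ was −0.61 to 1.43, and without the lymphocyte-rich LDIR A the difference was 0.0395 (SE 0.36). Of the 8 probes the greatest difference in size was that of Dleu2 A_55_P2200029 in 4-week BALB/c, −0.67 (CI −1.48 to 0.14).

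**Figure D4:**
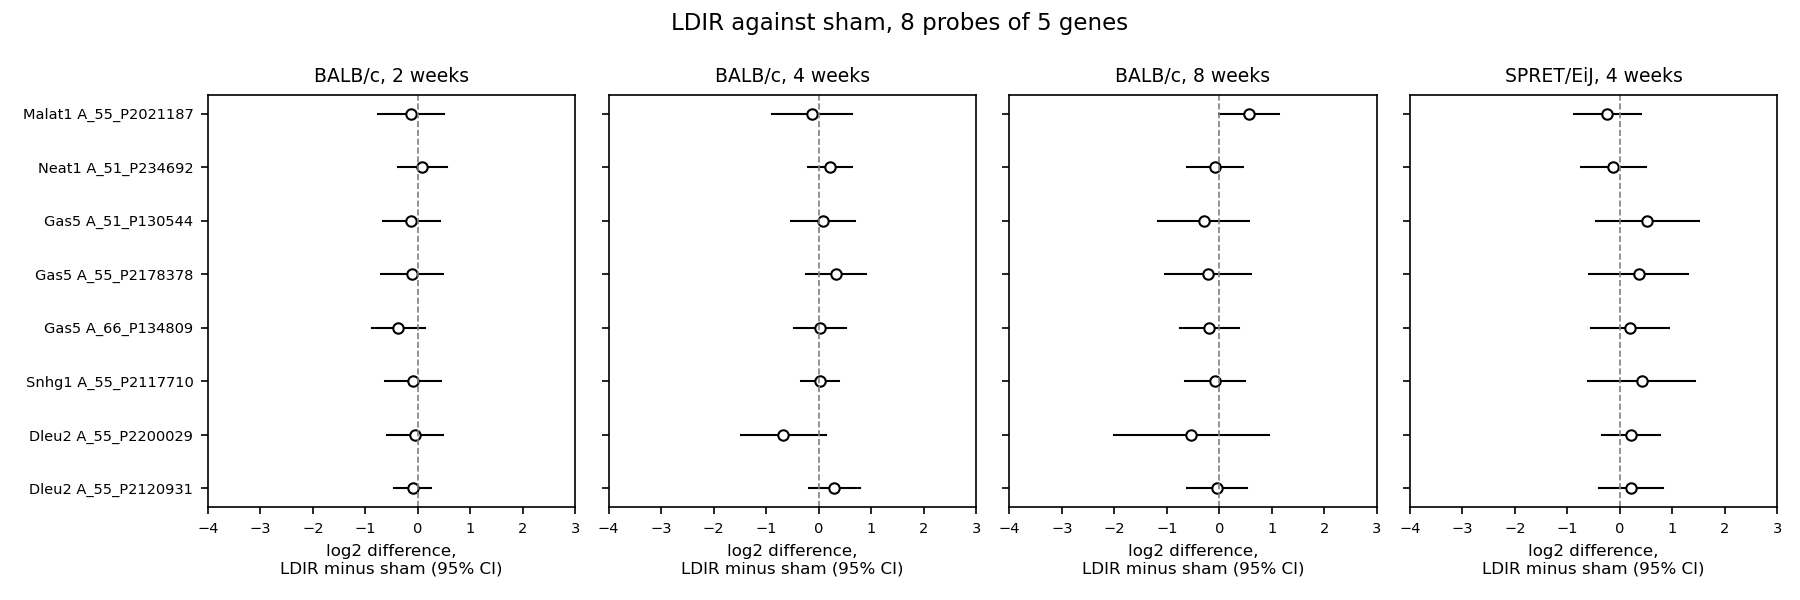
Log2 difference, LDIR minus sham (horizontal axis, 95% CI), for 8 probes of 5 genes in 4 comparisons of 3 against 3 arrays. All points are open, meaning no limma adjusted p under 0.05. All intervals include 0, that of Malat1 at 8 weeks with a lower bound of −0.0047.

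The region downstream of Neat1 was lower 4 weeks after LDIR in BALB/c. A_30_P01019037 was at 1.56, 1.69 and 1.83 in sham and 0.68, −0.04 and 0.98 in LDIR arrays, without overlap, as were 6.18% of all probes in that direction. The differences were −1.15 for A_30_P01019037, −1.03 for A_30_P01025818 and −0.93 for A_30_P01029006. All 3 passed the methods' thresholds, as did 1.44% of all probes in that direction, and none the adjustment (limma adjusted p = 0.687, 0.735 and 0.775), while Neat1 and the 5 NEAT1 probes differed by 0.20 to 0.32. Sham A and B lay on another slide than sham C and the LDIR arrays. In SPRET/EiJ the 3 probes differed after LDIR by −0.75, −0.78 and −0.78, and by −0.13, −0.18 and −0.19 without the lymphocyte-rich array, none called. The interaction at A_30_P01019037 was −0.40, and −1.02 without that array, neither called.

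At 8 weeks the same region had the other sign. The LDIR difference at A_30_P01019037 was 0.74 (CI −0.51 to 2.00, limma adjusted p = 1), and the change in response between 4 and 8 weeks was 1.89 (adjusted p = 0.986). Without the lymphocyte-rich arrays, with 2 arrays a group, the 8-week difference was 1.07 (adjusted p = 0.968). The summed level of 6 brown adipocyte markers was 6.35 to 7.29 in 4-week sham and 5.19 to 6.41 in 4-week LDIR BALB/c glands. At 8 weeks it was 3.74 to 5.05 in sham and 2.63 to 5.47 in LDIR glands (median difference −0.46, 2 of 6 higher). At 4 weeks 2 of the 6 passed the methods' thresholds with lower values. Macrophage markers went the other way at 4 weeks, with 3 of 6 past those thresholds with higher values and summed levels of 5.10 to 5.67 in sham and 5.70 to 6.20 in LDIR arrays, without overlap. In SPRET/EiJ sham the brown adipocyte sum was 6.14 to 6.60. The part of either cell type in the LDIR or strain difference was not tested.

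**Figure D5:**
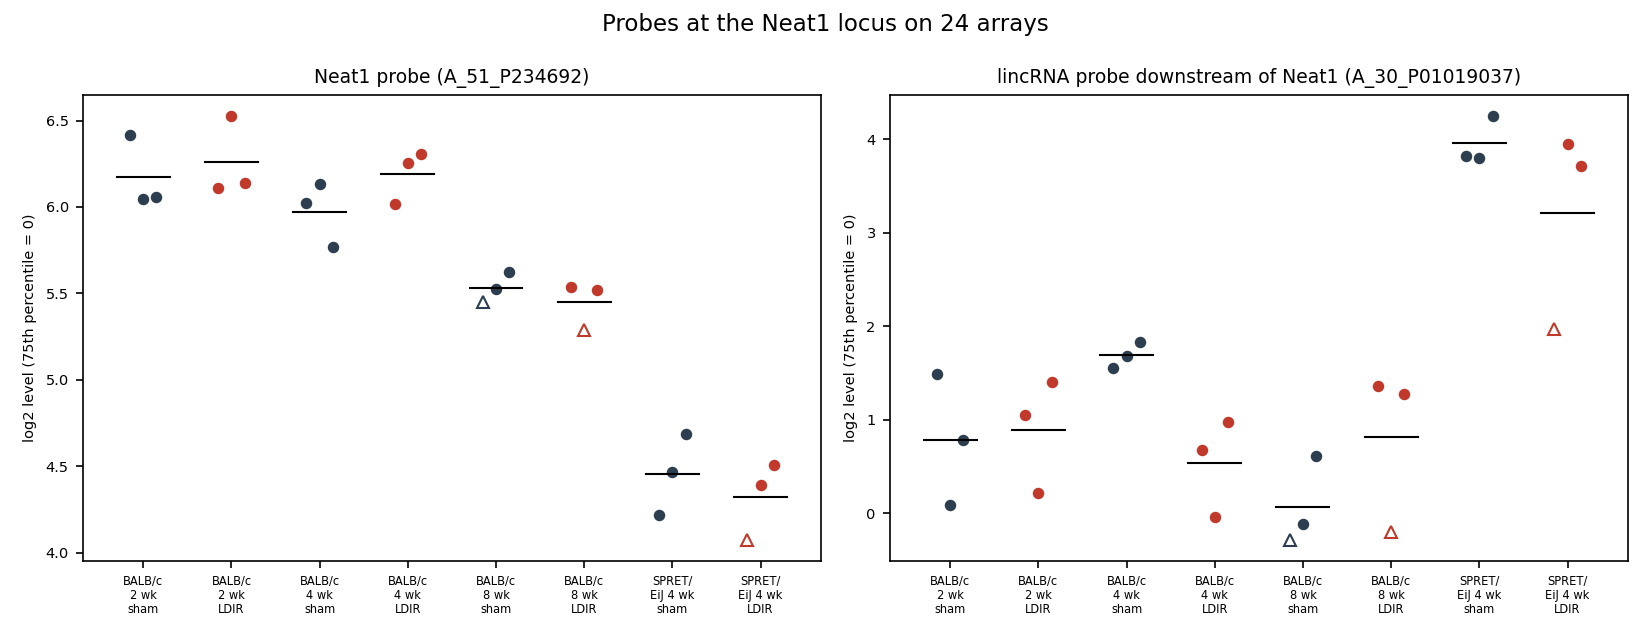
Log2 level (vertical axis, relative to the array's 75th percentile) of the Neat1 probe, left, and of the lincRNA probe 8.02 kb downstream, right, on 24 arrays in 8 groups; sham dark, LDIR red, open triangles the arrays with high lymphocyte markers, lines group means. SPRET/EiJ is lowest on the left, at 4.07 to 4.68, and highest on the right, at 1.97 to 4.25.

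A test of the difference in radiation response between strains at 4 weeks called 0 of 9 member probes (limma; 0% of all probes called). At the methods' thresholds 0 of 9 passed, where 3.59% of all probes did, and 0 of 9 had an unadjusted p under 0.05 (3.6% of all probes). Neat1 had an interaction of 0.35 (CI −0.31 to 1.01) and Gas5 A_66_P134809 of −0.17 (CI −1.0 to 0.66). Dleu2 A_55_P2200029 had −0.88 (CI −1.79 to 0.02). The response at 8 weeks against that at 4 weeks in BALB/c likewise gave 0 of 9 with adjustment (0% of all probes) and 0 of 9 by the methods' thresholds (4.35% of all probes), with Malat1 at 0.70 (CI −0.19 to 1.59), where the median of all probes was −0.21.

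Between sham times in BALB/c, 8 weeks against 4 weeks gave 0 of 9 by limma with adjustment (0% of all probes called) and 2 of 9 at an unadjusted p under 0.05 (14.1% of all probes). Those 2 also passed the methods' thresholds, as did 13.7% of all probes: Gas5 A_55_P2178378, which went from 0.49, 0.27 and 0.14 to 1.28, 0.77 and 1.15 (difference 0.77, adjusted p = 0.263), and Dleu2 A_55_P2200029, with a difference of −1.59 (adjusted p = 0.272). Without the lymphocyte-rich 8-week sham A the Dleu2 difference was −2.09 (limma adjusted p = 0.0604). Neat1 was at −0.44, Gas5 A_66_P134809 at 0.36 and Snhg1 at 0.33, each without overlap between the times, as were 23.4% of all probes. The 8-week sham arrays shared a slide with 4-week sham C, while 4-week sham A and B lay on another. Time and slide were therefore partly confounded here. Over the alternatives the Neat1 difference ran from −0.54 to −0.235. The lincRNA probe downstream of Neat1, A_30_P01019037, was at −1.62 (adjusted p = 0.128), and was called with normexp (−1.40, adjusted p = 0.0364) and with dim probes left out (adjusted p = 0.0377).

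Marker genes also differed between 8- and 4-week sham BALB/c glands, though none was called by limma with adjustment. Of all probes, 13.7% passed the methods' thresholds there. All 7 skeletal muscle markers passed the methods' thresholds with higher values (median 4.47), 6 of 8 white adipocyte markers with lower values (median −0.90) and 5 of 6 brown adipocyte markers with lower values (median −2.43). Their part in the Gas5 and Dleu2 differences was not tested. At Malat1, 4 probes near its 3′ end differed by 0.12 to 0.25 between 8 and 4 weeks and 6 upstream probes by −0.56 to −0.82, none called. The earlier interval, 4 weeks against 2 weeks, gave 0 of 9 by limma with adjustment (0% of all probes), 0 of 9 at an unadjusted p under 0.05 (3.81%) and 0 of 9 by the methods' thresholds (3.04%).

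Genes that work with these RNAs were counted in the sham strain comparison, against the 18.8% of all probes called. Of 14 paraspeckle proteins, which assemble on Neat1, 1 was higher in BALB/c and 0 lower (median 0.13): Cpsf7, a subunit of cleavage factor I, at 0.97 (SE 0.19). Of 15 nuclear speckle and SR splicing factors, the neighbours of Malat1, 1 was higher and 0 lower (median 0.14): Tra2b, a splicing activator, at 3.59 (SE 0.30). Tra2b was well above background on 22 of 24 arrays. Of 3 splicing factors that bind Miat RNA, 0 were called (median −0.33). The other genes of these lists were uncalled, as RNA, on the arrays where Neat1 differed, and protein was not measured.

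Of 10 other noncoding snoRNA hosts measured, 1 was higher and 1 lower in BALB/c (median −0.09). Snhg3 was higher by 1.79 (SE 0.24), as Gas5 and Snhg1 were, and Snhg12 lower by −0.76 (SE 0.19). Of 19 5′TOP and translation genes, 3 were higher and 0 lower (median 0.10), among them Rpsa by 2.63 and Rps3 by 1.09, both proteins of the small ribosomal subunit. Of 10 factors of nonsense-mediated decay, the process that removes spliced Gas5 and Snhg1, 0 were called (median 0.11).

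Of 9 protein-coding or noncoding genes around Dleu2, 0 were higher and 2 lower, Arl11, a small GTPase, at −1.82 and Rnaseh2b, a subunit of ribonuclease H2, at −0.85 (median −0.18). Of 10 known targets of miR-15 and miR-16, 0 were higher and 1 lower, the cyclin Ccne1 at −1.04 (median −0.42). Of 17 other named lncRNAs measured, 3 were higher and 0 lower (median 0.48): Tug1 by 1.66, the X-inactivation RNA Xist by 1.51 and the imprinted RNA Airn by 1.02. In the 4 comparisons of LDIR with sham 0 of the 107 genes of these 9 lists were called by limma with adjustment. The methods' thresholds were passed by 2 genes at 2 weeks, 3 at 4 weeks, 0 at 8 weeks and 2 in SPRET/EiJ, which is 1.87, 2.80, 0 and 1.87% of them, against 3.05, 4.83, 1.92 and 2.21% of all probes: Snhg9 (0.67) and Meg3 (−0.60) at 2 weeks, Arl11 (0.76), Dleu7 (0.76) and Nespas (1.48) at 4 weeks, and Tra2b (0.83) and Kcnrg (−0.86) in SPRET/EiJ. Of 24 arrays, Dleu7 was well above background on 4, Nespas on 3, Snhg9 on 16, Kcnrg on 20 and Tra2b on 22.

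Gas5 and Snhg1 levels went together over the 24 arrays (Pearson r = 0.95), and r was 0.78 for deviations from group means. The gene most like Gas5 A_66_P134809 in its pattern was Rpl14, a protein of the large ribosomal subunit (r = 0.98), and the most like Snhg1 was Zfp825 (r = 0.96). Neat1 was most like Adal (r = 0.98), Malat1 most like Gm9889 (r = 0.91) and then Btg2, an antiproliferative gene (r = 0.85), and Dleu2 A_55_P2120931 most like Ctrl (r = 0.90). These correlations share 24 arrays, in which the strain difference weighs on each gene that has one, and are given as description. Within groups, Neat1 deviations ran against those of Gas5 A_66_P134809 (r = −0.40) and Snhg1 (r = −0.30). In SPRET/EiJ LDIR, the lymphocyte-rich A had the lowest Neat1 (4.07) and the highest Gas5 (2.04) and Snhg1 (−0.80). The reverse held on C, the array with the fewest probes well above background (4.51, 1.05 and −2.01). How far these arrays carry the within-group r values, that of Gas5 with Snhg1 included, was not tested.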

How the data were processed

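Mammary gland RNA of 24 samples, 8 groups of 3 by the labels' strain, treatment, time and replicate letter, was measured on Agilent arrays of 62976 spots. The methods call the 3 samples of a group biological replicates. The deposited scanner files hold intensity values with background subtracted and spatial trends removed, per the file headers. The authors also deposited log2 values normalized to the 75th percentile and centred on each probe's median, which served as an alternative and agreed within 0.01 for 99.812% of values after centring.

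Of 59305 spots that are not controls, outlier spots (3777 over all arrays) were left out. Log2 intensities of a probe's spots were averaged and each array's 75th percentile over the 55681 probes was subtracted. Probe positions are mm9, as the files give them. Groups were compared with limma 3.58.1 (R 4.3.3) on 6 arrays, or 12 for interactions, fitted on all probes, and called at a Benjamini-Hochberg adjusted p under 0.05 over all probes. The scripts were tested on simulated data. The number of arrays limits the precision.

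The 6 genes were chosen by name. Each is led by its probe with the highest mean level. From the 9 lists of related genes, the genes called or past the methods' thresholds are named (1 is not reported here), and, as most alike, genes with the highest Pearson correlation over 24 arrays. Marker lists covered luminal and basal epithelium, milk proteins, white and brown adipocytes, lymphocytes, macrophages, erythrocytes and skeletal muscle. A list's summed level is the log2 of its genes' summed linear levels. The members and lists were chosen with earlier results of these data known.

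At 2 weeks, LDIR and sham arrays of the same letter deviated together from their group means (r = 0.17, 0.48 and 0.17 for A, B and C over 29337 probes), so letters can be read as pairs there. Values are from the fit without a block in every comparison, and the fit with the letter as a block is an alternative. The labels state no pairing. In none of the other comparisons of groups did A, B and C all have a positive r. A single letter could, as C did for LDIR against sham at 8 weeks (r = 0.55, with −0.56 for A and −0.57 for B).

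Settings varied one at a time were the background correction (normexp, offset 50), the normalization (quantile), the value table of the authors (log2), outlier spots (kept), dim probes (left out), the methods' t-test, all 24 arrays in one fit, slide as a fixed or random block, the replicate letter as a block, and each array left out. Slide as a term within a comparison's own arrays, the alternatives for the probe downstream of Neat1, and leaving out the 3 arrays with lymphocyte markers above 6 were added after seeing the data.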

Additional observations from a re-analysis of the deposited data

How the results depend on the processing

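Between sham strains 5 of 9 probes were called. The methods' t-test called 3 of 9, the fit of 24 arrays with slide as a fixed term 1 of 9, and leaving out each array in turn 2 to 4, with the lowest count, 2, without BALB/c sham A and 3 without SPRET/EiJ sham B or C. Snhg1 lost its call without BALB/c sham A (limma adjusted p = 0.0504) and with the methods' t-test (adjusted p = 0.0572). Between LDIR strains 2 of 9 were called, against 1 of 9 with the methods' t-test, 4 of 9 with all 24 arrays in one fit and 4 of 9 without the array with high lymphocyte markers, and 1 to 4 as each array was left out, with 1 of 9 without BALB/c LDIR A or B, where Gas5 A_66_P134809 lost its call (limma adjusted p = 0.0615 and 0.0608). Between sham times, 8 against 4 weeks, all 24 arrays in one fit called 1 of 9, that of Dleu2 A_55_P2200029 (−1.59, limma adjusted p = 0.0245).

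With the replicate block the counts were 5 of 9 between sham strains, 2 of 9 between LDIR strains and 0 in the remaining comparisons, and no call on a member changed. At 2 weeks, where the letters can be read as pairs, Gas5 A_66_P134809 after LDIR was −0.37 with SE 0.14 under the block (limma adjusted p = 0.731). The probe downstream of Neat1, A_30_P01019037, lost its call between LDIR strains under that block (−2.67, limma adjusted p = 0.0593).

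Values that changed sign were all uncalled. With normexp Snhg1 after LDIR at 4 weeks was −0.027. With slide as a fixed term, Gas5 at 4 weeks was −0.11, Neat1 at 8 weeks 0.0036, and the interactions of Dleu2 and Malat1 −0.12 and −0.13. By the slides of the BALB/c arrays, these values rest on sham C alone at 4 weeks and on LDIR A alone at 8 weeks. Without lymphocyte-rich arrays Dleu2 was 0.0029 between LDIR strains and 0.088 after LDIR at 8 weeks, and Gas5 −0.079 after LDIR in SPRET/EiJ and 0.10 in the interaction. As each array was left out, LDIR differences at 2 weeks ran from −0.29 to 0.10 for Malat1, −0.046 to 0.21 for Neat1, −0.25 to 0.064 for Snhg1 and −0.24 to 0.46 for the downstream Neat1 probe. At 4 weeks they ran from −0.11 to 0.15 for Gas5, −0.46 to 0.076 for Malat1 and −0.039 to 0.0745 for Snhg1, at 8 weeks from −0.15 to 0.10 for Dleu2 and −0.21 to 0.0068 for Snhg1, and in SPRET/EiJ from −0.079 to 0.42 for Gas5. Interactions ran from −0.035 to 0.25 for Dleu2, −0.39 to 0.10 for Gas5 and −0.22 to 0.32 for Malat1, the LDIR strain difference of Dleu2 from −0.28 to 0.0029, and Gas5 between 4 and 2 weeks from −0.15 to 0.12. The causes were not tested. Of the other values under alternatives, 982 kept direction and side of the threshold. Of the 9 probes, signal over background limits the third Dleu2 stretch.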
